A study of Bienertia sinuspersici with 9 samples.

Results

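A malic enzyme and a pair of malate dehydrogenases were followed at the transcript level in leaves of Bienertia sinuspersici. They were the NAD-dependent malic enzyme NAD-ME2 (unigene BS38916_c0_g1_i1), the mitochondrial malate dehydrogenase mMDH2 (BS6222_c0_g1_i2) and the cytosolic malate dehydrogenase cMDH1 (BS95047_c2_g1_i1). These 3 unigenes were chosen by name and function, and all 3 were found among the 36907 unigenes of the assembled leaf transcriptome and among the 11709 kept in the normalized table. Leaves of wild-type plants, grown in soil in a greenhouse and watered with dilute NaCl, were sampled at a Young, an Intermediate and a Mature stage, with 3 libraries per stage and 9 in all. Plants were a few months old, and no genotype or treatment differed between the stages. From Mature leaves the tip alone was taken, so stage and leaf part cannot be told apart. The labels do not say which plants stood behind each library, and p-values therefore reflect the spread among these libraries only.

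Bienertia carries out C4 photosynthesis within single leaf cells, without the wreath of bundle sheath cells of most C4 plants. In the NAD-malic enzyme type of this cycle, phosphoenolpyruvate carboxylase fixes carbon in the cytosol, and the carbon reaches mitochondria as an amino or organic acid. Inside mitochondria an aspartate aminotransferase returns aspartate to oxaloacetate, malate dehydrogenase reduces oxaloacetate to malate, and malic enzyme splits malate into pyruvate, CO2 and NADH, so that the CO2 can be fixed again by Rubisco. Cytosolic malate dehydrogenase interconverts the same acids outside the organelle. Both malate dehydrogenases also serve respiration and redox exchange in plants that have no C4 cycle.

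The only sequences of these transcripts at hand are the primer pairs with which the study assayed each of them by quantitative RT-PCR. They are shown so that each unigene can be traced. Primers are written 5′ to 3′ in lower case, with no capitals because no base is singled out. The transcriptome was assembled without a genome, so none of them has a genomic coordinate or a chromosome.
NAD-ME2 forward: attgggttgggagctttgc
NAD-ME2 reverse: aggaagcaagacattcagcg
mMDH2 forward: tccctcaagtgcctttgc
mMDH2 reverse: agctcaggtttctggttatatgg
cMDH1 forward: gttggtggtttcccaagg
cMDH1 reverse: cattctttgccatcacatcc
The oligonucleotides were 18 to 23 bases long and 43.5% to 55.6% of their bases were G or C. In the assembler's naming, each unigene was the only one of its gene and of its component left in the table, from which redundant transcripts had been removed. Other malic enzyme and malate dehydrogenase genes were not analysed here.

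Levels are given as TPM, a share of transcripts that sums to the same total in each library and takes account of transcript length and so allows genes to be compared, and as TPMTMM, the same values scaled between libraries by the trimmed mean of M values. NAD-ME2 had 707.8, 721.7 and 752.8 TPMTMM in the Young libraries, 1112, 1084 and 1928 in the Intermediate libraries and 2587, 2854 and 2630 in the Mature libraries. Each library of a later stage lay above every library of an earlier stage, and Intermediate replicate 3 stood well above the other two of its stage. The stage means were 727 ± 23.0, 1375 ± 479 and 2690 ± 144 TPMTMM (SD, n = 3). From Young to Mature leaves NAD-ME2 rose 3.69-fold, a log2 fold change of 1.88 (standard error 0.22, 95% confidence interval 1.39 to 2.38, adjusted p = 0.000157 from limma). This change was higher than that of 97.4% of the unigenes tested, whereas 24.2% of all unigenes, and 45.5% of those with a mean of at least 100 TPMTMM, rose in the same comparison and 23.9% of all unigenes fell.

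mMDH2 had 628, 674 and 640 TPMTMM in the Young libraries, 856, 765 and 956 in the Intermediate libraries and 1135, 1228 and 1184 in the Mature libraries. The 3 stages did not overlap here either, but they lay much closer together than those of NAD-ME2. Stage means were 647 ± 23.7, 859 ± 95.7 and 1182 ± 46.8 TPMTMM (SD, n = 3). The rise from Young to Mature leaves was 1.83-fold, a log2 fold change of 0.87 (95% confidence interval 0.59 to 1.14, adjusted p = 0.000433 from limma). Of the unigenes tested, 86.6% had a lower change.

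cMDH1 had 506, 554 and 501 TPMTMM in the Young libraries, 617, 563 and 545 in the Intermediate libraries and 723, 741 and 649 in the Mature libraries. Young and Intermediate libraries overlapped, since Young replicate 2 exceeded Intermediate replicate 3, while all Mature libraries lay above both earlier stages. Stage means were 520.5 ± 29.5, 575 ± 37.1 and 704 ± 48.9 TPMTMM (SD, n = 3). cMDH1 rose 1.35-fold from Young to Mature leaves, with a log2 fold change of 0.43 (95% confidence interval 0.19 to 0.68, adjusted p = 0.0101 from limma), a direction that turned to -0.11 in TPM without scaling between libraries. This was the smallest change of the 3 enzymes, and 74.7% of the unigenes had a lower one. Across all unigenes, 28% had every Mature library above every Young library in TPMTMM, as all 3 enzymes had.

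**Figure D1:**
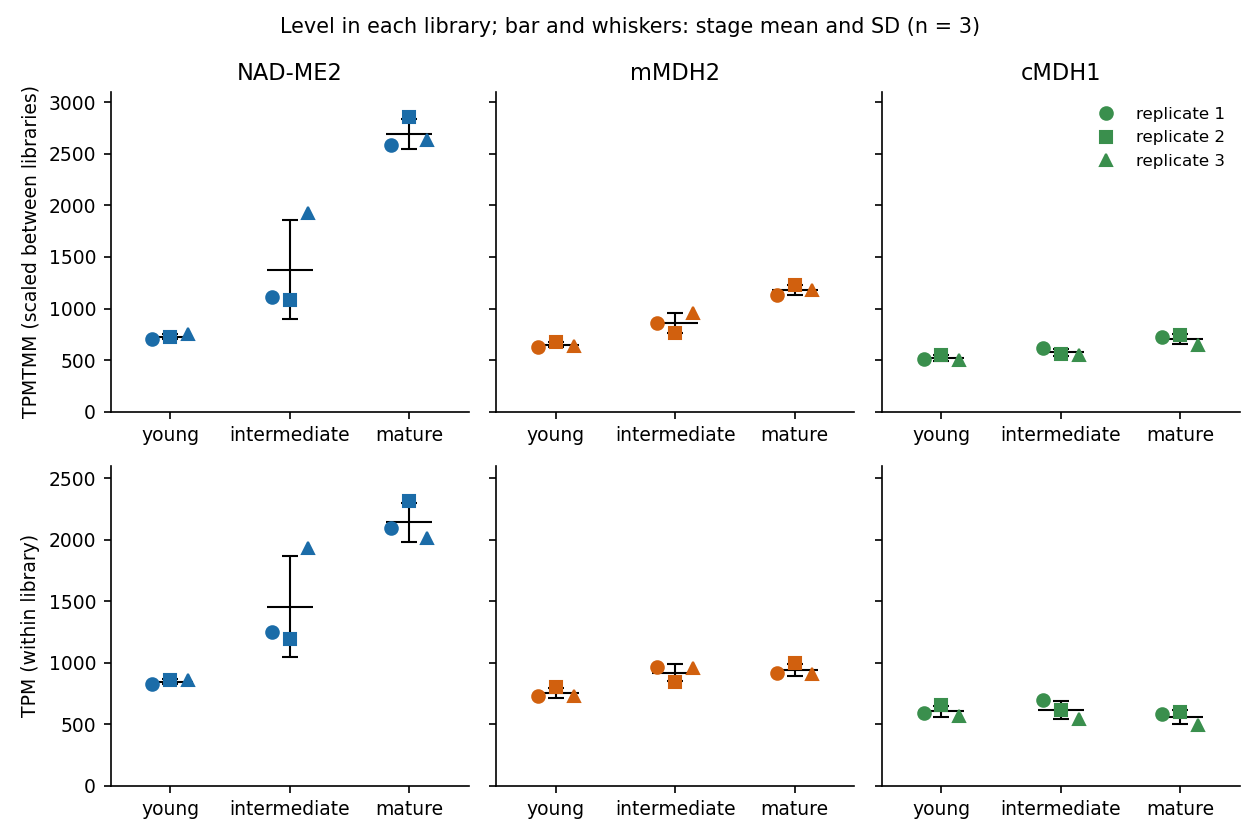
Levels of NAD-ME2, mMDH2 and cMDH1 in each of the 9 libraries, in TPMTMM (upper row) and TPM (lower row), with symbols for the replicate number and a bar with whiskers for the stage mean and SD (n = 3). NAD-ME2 climbed from 727 to 2690 TPMTMM, and Intermediate replicate 3, at 1928, stood between its own stage and Mature leaves.

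The 11709 unigenes together placed the enzymes at different points of a common distribution. The median unigene changed by -0.02 on the log2 scale between Young and Mature leaves, against -0.57 in TPM without scaling. The scaling thus brought the typical unigene close to no change, and this median follows from it. The 3 enzymes had a median of 0.87.

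**Figure D2:**
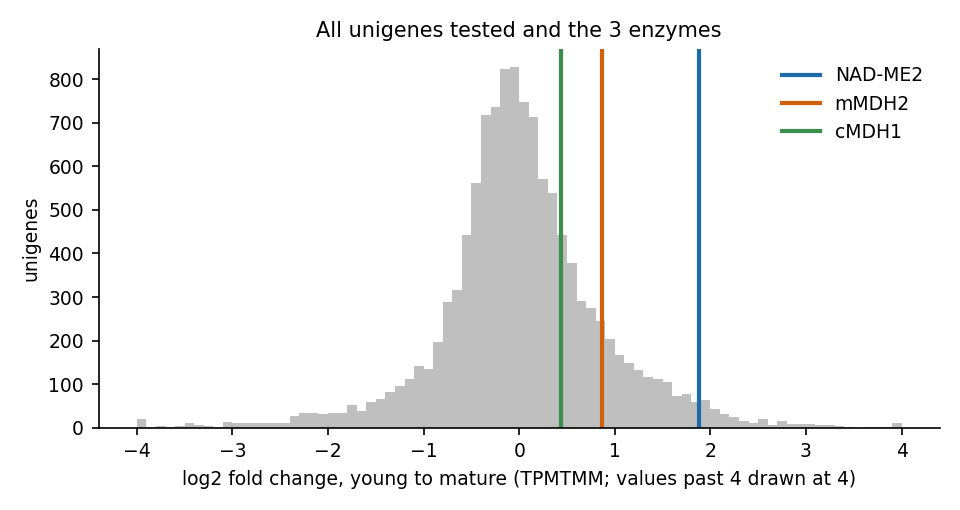
Distribution of the Young to Mature log2 fold change over 11709 unigenes (x axis, TPMTMM, values past 4 drawn at 4; y axis, number of unigenes), with vertical lines for the 3 enzymes. cMDH1 at 0.43 lay on the shoulder of the main peak, mMDH2 at 0.87 further out and NAD-ME2 at 1.88 in the right tail.

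The separate steps of leaf growth were compared next. From Young to Intermediate leaves none of the 3 enzymes passed the test in limma (2 had an unadjusted p under 0.05), where 2.99% of all unigenes rose (13.1% of those whose mean reached 100 TPMTMM) and 2.76% fell. NAD-ME2 came nearest, with a log2 fold change of 0.86 (95% confidence interval 0.37 to 1.36, adjusted p = 0.0547 from limma). With replicate number added as a block and only these 6 libraries fitted, the same 0.86 passed the test (adjusted p = 0.0176 from limma), and 1510 unigenes rose in place of 350. Without Intermediate replicate 3 the value was 0.59 and did not pass (adjusted p = 0.062 from limma).

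For mMDH2 the first step was 0.40 (95% confidence interval 0.13 to 0.68, adjusted p = 0.0866 from limma). For cMDH1 it was 0.14 (95% confidence interval -0.10 to 0.39, adjusted p = 0.539 from limma). In single libraries the Young and Intermediate stages stood apart for NAD-ME2 and mMDH2, a pattern that 18.2% of unigenes shared, and overlapped for cMDH1, in which the Intermediate library was higher in 8 of 9 pairs.

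From Intermediate to Mature leaves NAD-ME2 and mMDH2 rose, where 16.1% of all unigenes rose (30.6% of those whose mean reached 100 TPMTMM) and 15.9% fell. The log2 fold change was 1.02 for NAD-ME2 (95% confidence interval 0.53 to 1.51, adjusted p = 0.00778 from limma), and it passed without any one library. In unscaled values of all unigenes of the TPM table the change of NAD-ME2 was 0.59 and did not pass (adjusted p = 0.0619 from limma). For mMDH2 it was 0.47 (standard error 0.12, adjusted p = 0.0181 from limma), a call that was lost without Intermediate replicate 1 (adjusted p = 0.0601 from limma), Intermediate replicate 2 (adjusted p = 0.0731 from limma) or Mature replicate 2 (adjusted p = 0.0565 from limma). cMDH1 changed by 0.29 (95% confidence interval 0.04 to 0.54) and did not pass (adjusted p = 0.0714 from limma). All Mature libraries of the 3 enzymes lay above all Intermediate ones in TPMTMM, as in 21.8% of unigenes.

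Whether an enzyme moved more in one step than in the other was tested directly. The second step minus the first was 0.16 for NAD-ME2 (95% confidence interval -0.70 to 1.01, adjusted p = 0.908 from limma), 0.06 for mMDH2 (-0.41 to 0.54, adjusted p = 0.935 from limma) and 0.15 for cMDH1 (-0.28 to 0.58, adjusted p = 0.802 from limma). These intervals were wide, and they left room for a larger change in either step. NAD-ME2 had reached 45.9% of its log2 change by the Intermediate stage, with 31.5% to 53.5% when an Intermediate library was left out. mMDH2 had reached 46.4%, with 37.1% to 55.7% in this way. cMDH1 had reached 32.9%, with 21.1% without Intermediate replicate 1 and 41.4% without Intermediate replicate 3. Over all unigenes the second step was higher in 0.743% and lower in 1.52%.

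The scaling between libraries bore on how far the malate dehydrogenases changed. TPM had been multiplied by a factor of 0.858 ± 0.0171 in Young libraries, of 0.932 ± 0.0587 in Intermediate libraries and of 1.26 ± 0.0421 in Mature libraries (SD, n = 3). In TPM, where no such factor is applied, NAD-ME2 had 825, 857 and 859 in Young libraries, 1251, 1191 and 1929 in Intermediate libraries and 2096, 2318 and 2014 in Mature libraries. Its stages still did not overlap. In TPM such a gap upward was found in 10.2% of unigenes between Young and Intermediate leaves, in 7.81% between Intermediate and Mature leaves and in 12.1% between Young and Mature leaves. Between Young and Mature leaves NAD-ME2 then changed by 1.34 on the log2 scale (adjusted p = 0.000333 from limma).

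mMDH2 had 732, 800.1 and 730 TPM in Young libraries, 963, 840.2 and 956 in Intermediate libraries and 919, 997 and 906 in Mature libraries. Intermediate and Mature leaves overlapped, and both lay above Young leaves. Its change from Young to Mature leaves was 0.32 (adjusted p = 0.0388 from limma), which did not pass when all unigenes of the TPM table were fitted (adjusted p = 0.0804), and the second step, at 0.034, no longer passed (adjusted p = 0.822 from limma).

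cMDH1 had 590, 658 and 571 TPM in Young libraries, 693, 618 and 545 in Intermediate libraries and 585, 601 and 496 in Mature libraries. All 3 stages overlapped, and the Young to Mature log2 fold change was -0.11 (adjusted p = 0.475 from limma), so the direction of cMDH1 turned with the scaling. The median of all unigenes moved by -0.57 on the same unscaled values, and relative to it the changes were 1.91 for NAD-ME2, 0.89 for mMDH2 and 0.46 for cMDH1. Scaled to the upper quartile of each library, the changes were 1.77, 0.75 and 0.32 in this order, and scaled to the reference genes RPT6A and SAND, 1.94, 0.92 and 0.49. All 6 of these passed the test. RPT6A and SAND had been picked by the study as stable in these libraries.

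**Figure D3:**
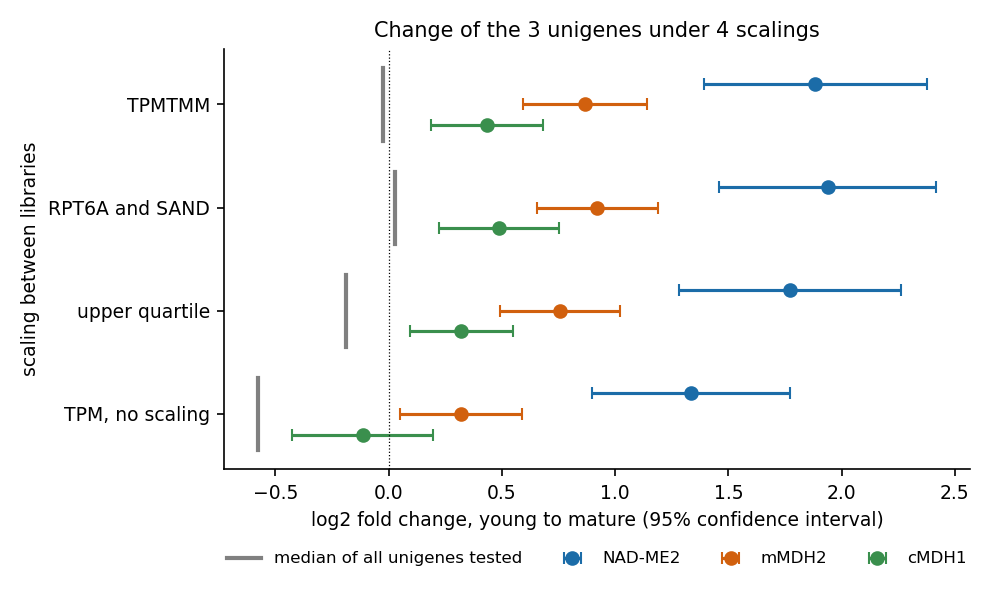
Log2 fold change between Young and Mature leaves (x axis, points with 95% confidence intervals from limma) of the 3 enzymes under 4 scalings between libraries (y axis), with a grey bar for the median of 11709 unigenes. The order of the enzymes was the same in all 4, while the position of the whole set moved with the median, which lay at -0.57 without scaling.

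Ratios between the enzymes within a library do not depend on that scaling. NAD-ME2 was the most abundant, mMDH2 the second and cMDH1 the third in all 9 libraries. The level of NAD-ME2 was 1.13, 1.07 and 1.18 times that of mMDH2 in Young libraries, 1.30, 1.42 and 2.02 times in Intermediate libraries and 2.28, 2.32 and 2.22 times in Mature libraries. In Young leaves the malic enzyme and the mitochondrial dehydrogenase thus stood at nearly the same level, and the stages did not overlap in this ratio. Its log2 value rose from 0.17 ± 0.07 through 0.63 ± 0.34 to 1.18 ± 0.03 (SD, n = 3), and differed between stages (exact permutation p = 0.00357, the smallest possible, or 0.00536 adjusted over 3 ratios).

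Against cMDH1, NAD-ME2 was 1.40, 1.30 and 1.50 times as abundant in Young libraries, 1.80, 1.92 and 3.53 times in Intermediate libraries and 3.57, 3.85 and 4.05 times in Mature libraries. Intermediate replicate 3 almost reached the Mature values. The mean log2 ratio increased by 1.45 from Young to Mature leaves. Over the 3 stages the ratio differed (exact permutation p = 0.00357, 0.00536 adjusted), in a test that takes no direction. Leaving out Mature replicate 2 or 3 brought the p of this ratio and of the ratio to mMDH2 to 0.0589 after adjustment in the exact permutation test, with 8 libraries left.

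The ratio of mMDH2 to cMDH1 was 1.24, 1.22 and 1.28 in Young libraries, 1.39, 1.36 and 1.75 in Intermediate libraries and 1.57, 1.66 and 1.82 in Mature libraries. Intermediate replicate 3 exceeded Mature replicates 1 and 2, so the later stages overlapped. The log2 ratio increased by 0.43 from Young to Mature leaves, the least of the 3 ratios. Over the 3 stages it differed in the same test (exact permutation p = 0.0429, also 0.0429 adjusted). This call was lost without any one of the Young libraries, Mature replicate 2 or Mature replicate 3 (adjusted exact permutation p = 0.0714 to 0.0964). Replicate 3 had the highest ratio of its stage in all 3 stages, for mMDH2 to cMDH1 as for NAD-ME2 to cMDH1.

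**Figure D4:**
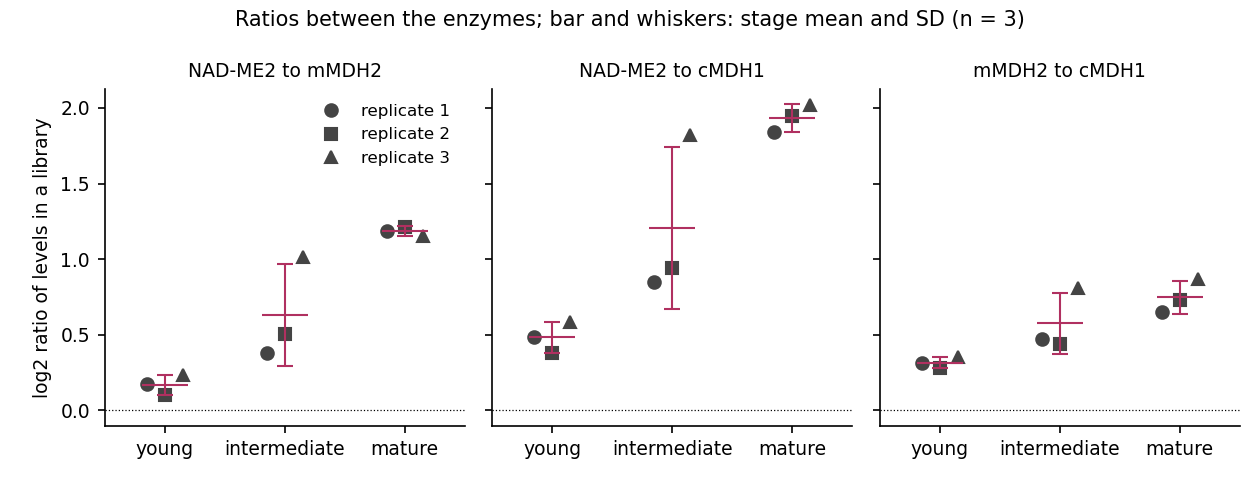
Log2 ratio between the levels of each pair of enzymes in a library (y axis) at the 3 stages (x axis), with symbols for the replicate number and bars with whiskers for the mean and SD (n = 3). NAD-ME2 to mMDH2 rose from 0.17 to 1.18 and NAD-ME2 to cMDH1 by 1.45, and Intermediate replicate 3 was the highest of its stage in each panel.

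Of the summed TPM of the 3 enzymes, NAD-ME2 made up 38.4% ± 1.37 at the Young, 48.1% ± 7.14 at the Intermediate and 58.8% ± 0.509 at the Mature stage (SD, n = 3). cMDH1 went the other way, from 27.4% through 21.0% to 15.4%, and mMDH2 from 34.1% through 30.9% to 25.8%. The sum itself grew from 2207 to 2995 and 3644 TPM. Among the 36907 unigenes of a library, NAD-ME2 ranked from 98 to 117 by TPM in Young leaves, from 40 to 79 in Intermediate leaves and from 51 to 55 in Mature leaves. mMDH2 kept a rank of 103 to 140 and cMDH1 of 156 to 232 over all libraries.

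The enzymes were set beside 6 other enzymes of the C4 cycle. This list is partial, since the study also counts ALA-AT2 in the cycle. All 6 other cycle enzymes rose from Young to Mature leaves, where 24.2% of all unigenes rose (45.5% of those whose mean reached 100 TPMTMM). The log2 fold changes of the 6 were 1.43 to 2.85 with a median of 2.02, against a median of -0.02 over all unigenes. The 6 were the carboxylating enzyme PEPC1 (2.85), PPDK (2.57), which regenerates phosphoenolpyruvate, the carbonic anhydrases CAb1 (1.43) and CAb2 (2.08), and the aspartate aminotransferases ASP-AT1 (1.90) and ASP-AT2 (1.96). NAD-ME2 at 1.88 lay within this range and mMDH2 and cMDH1 below it. The study named these genes and the 3 enzymes in its account of these libraries, so their direction is not independent evidence.

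Relative to PEPC1, NAD-ME2 stood at 0.541 ± 0.0295 at the Young, 0.487 ± 0.0111 at the Intermediate and 0.278 ± 0.0135 at the Mature stage (ratio of TPMTMM, SD, n = 3). Relative to PPDK the ratio went from 0.616 ± 0.0277 to 0.383 ± 0.017, and for both genes Young and Mature libraries did not overlap. Relative to ASP-AT1 it was 3.13 ± 0.078 in Young and 3.11 ± 0.305 in Mature leaves, and Young and Mature libraries overlapped, as they did relative to ASP-AT2, CAb1 and CAb2. mMDH2 and cMDH1 were lower in every Mature than in every Young library relative to each of the 6 enzymes. Relative to ASP-AT1, mMDH2 went from 2.79 to 1.37 times its level and cMDH1 from 2.24 to 0.812 times. The 6 enzymes rose by log2 fold changes of 1.43 to 2.85, where the median unigene changed by -0.02. A unigene that rose less than they did falls relative to them, and the share of all unigenes with this pattern was not computed. These ratios are descriptions and were not tested.

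In the first step NAD-ME2 at 0.86 did not pass the test, while all 6 other cycle enzymes rose, by 0.71 to 1.10. In that step 2.99% of all unigenes rose (13.1% of those whose mean reached 100 TPMTMM). The adjusted p-values of the 6 enzymes from limma lay between 0.0297 and 0.047, close to the threshold, and the calls changed with the settings. The number that rose was 4 of 6 in TPM without scaling and when scaled to the reference genes, and 5 of 6 when scaled to the upper quartile. Without Intermediate replicate 1 or any one of the Young libraries it was 0, without Intermediate replicate 3 it was 2, without Intermediate replicate 2 it was 3, and without Mature replicate 2 it was 1, in fits added after seeing the data. Intermediate replicate 3 was the highest of its stage for all 6, with 3960 TPMTMM of PEPC1 against 2230 and 2274 in the other libraries. In the second step the 6 enzymes rose by 0.73 to 1.83, where 16.1% of all unigenes rose (30.6% of those whose mean reached 100 TPMTMM). All 6 enzymes rose without any one library. In TPM without scaling 5 of 6 rose, as they did over all unigenes of the TPM table. With the replicate block in a fit of the 2 stages 5 of 6 rose too.

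Carriers that move the acids of the cycle and its sugar phosphates were listed in part. Others that the study names, such as PPT1, BASS2 and DIC, were left out. All 3 listed carriers rose from Young to Mature leaves, where 24.2% of all unigenes and 45.5% of the abundant ones rose. These were DTC (0.56), which exchanges dicarboxylates and tricarboxylates across the inner mitochondrial membrane, UCP1 (1.25), of the same family of mitochondrial carriers, and TPT (1.46), the triose phosphate translocator of the chloroplast envelope. In TPM without scaling 2 of the 3 rose, where 11.1% of all unigenes rose. DTC and mMDH2 reached similar first-step values (0.45 and 0.40), neither of which passed. In the second step DTC moved by 0.11 and did not pass, and mMDH2 moved by 0.47 and passed. The difference between DTC and mMDH2 was not tested.

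Other proteins of mitochondria, outside the cycle, were set beside them. Of 5, none rose from Young to Mature leaves in limma, where 24.2% of all unigenes rose. At an unadjusted p under 0.05 the number higher was also 0. PHB2, a prohibitin of the inner membrane, fell by 0.38 on the log2 scale (adjusted p = 0.0289 from limma), so that 1 of 5 fell where 23.9% of all unigenes fell. None fell when scaled to the reference genes or without Young replicate 2, Young replicate 3 or Mature replicate 3. The assembly factor COX11 (0.25), MCCA (0.79), which takes part in leucine breakdown, CNX3 (-0.37), of molybdenum cofactor synthesis, and the lipoyltransferase LIP2 (0.15) did not pass the test. The highest stage mean of these genes was 16.63 TPMTMM, for MCCA in Mature leaves, and PHB2 had 114 to 151. The lowest stage mean of the 3 enzymes was 520.5 TPMTMM, for cMDH1 in Young leaves. Unigenes with a mean of at least 100 TPMTMM rose more often (45.5%), so the 5 proteins are not matched to the enzymes in level. In TPM without scaling 2 of the 5 fell, where 56.9% of all unigenes fell.

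**Figure D5:**
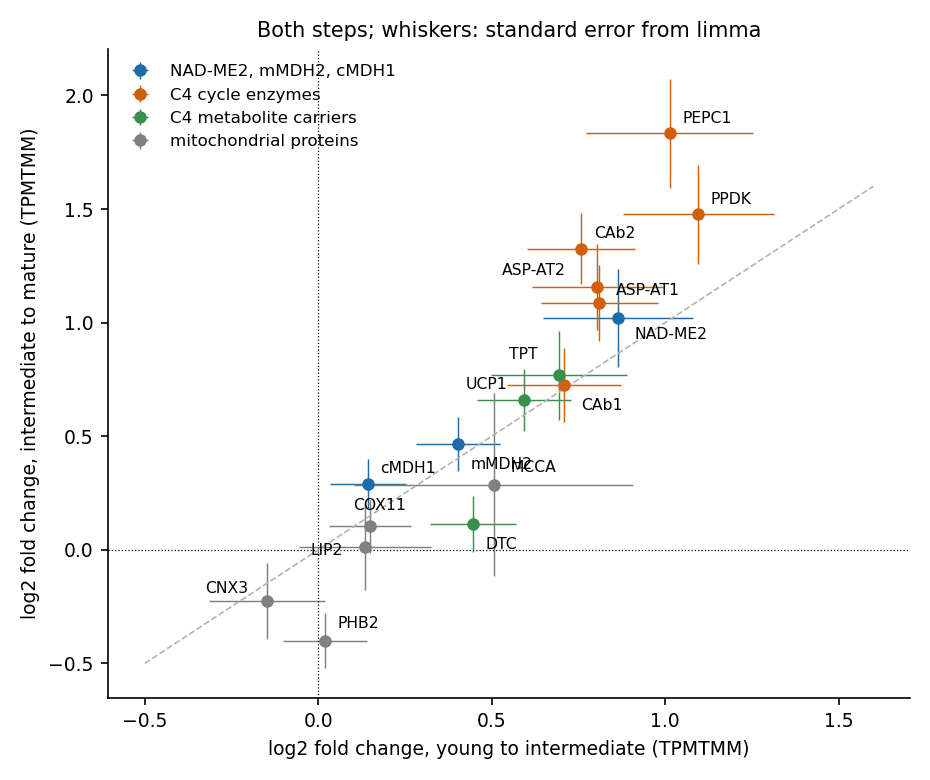
Log2 fold change in TPMTMM from Young to Intermediate leaves (x axis) against that from Intermediate to Mature leaves (y axis), with standard errors from limma as whiskers and a dashed line where both are equal. NAD-ME2 (0.86 and 1.02) sat beside the aspartate aminotransferases, while mMDH2 (0.40 and 0.47) and cMDH1 (0.14 and 0.29) sat lower along the same diagonal.

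Markers of other cell states moved over the same stages, and fewer cells of a type and less RNA per cell cannot be told apart in whole leaf tissue. All 4 genes of green leaf cells (PSAD2, PSB27-1, PORC, HCAR) rose from Young to Mature leaves, where 24.2% of all unigenes rose (45.5% of those whose mean reached 100 TPMTMM). Their summed level was 1173 to 1627 TPMTMM in Young, 1955 to 2371 in Intermediate and 3155 to 4674 in Mature libraries. All 4 genes of dividing cells (HTR12, TPX2, BARD1, CTF18) fell, where 23.9% of all unigenes fell, with sums of 70.7 to 84.9, 52.7 to 58.9 and 33.3 to 39.4 TPMTMM. Of 4 epidermis genes CER1 and KCS1 fell, beside the same 23.9%, and KCS2 and GPAT4 did not pass. Their sums were 380 to 469, 448 to 476 and 262 to 295 TPMTMM. No listed marker was at the floor of the table in any library. The part of these markers in the changes of the 3 enzymes was not tested.

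The unigenes with the most similar pattern over the 9 libraries were sought among the 2098 others with a mean of at least 50 TPMTMM, by Pearson correlation of log2(TPMTMM + 1). The points share their libraries and their scaling factors, so the coefficients only describe, and only 36 of the unigenes compared had a name. These 36 include listed genes of the cycle, its carriers and cell markers, so which names came closest depended on that choice. For NAD-ME2 the closest named genes were PPDK (0.994), ASP-AT1 (0.993) and PEPC1 (0.988), at ranks 8, 10 and 47 of all compared, and the closest unnamed unigenes were BS7378_c0_g1_i9 (0.998) and BS9083_c0_g1_i22 (0.997). A coefficient of at least 0.95 was shared by 303 unigenes, or 14.4%, so a pattern like that of NAD-ME2 was common.

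For mMDH2 the closest named genes were PPDK (0.988), NAD-ME2 (0.988) and UCP1 (0.987), at ranks 39, 43 and 46. The unnamed unigenes BS17822_c0_g1_i4 and BS7167_c0_g1_i18 (both 0.997) came first, and 340 unigenes reached 0.95. cMDH1 had fewer close matches. Its closest named genes were AT1G04290 (0.941), TPT (0.938) and PORC (0.928), a protochlorophyllide oxidoreductase, at ranks 40, 60 and 106, its closest unnamed ones were BS8239_c0_g1_i4 (0.977) and BS25478_c0_g1_i1 (0.973), and 15 unigenes, or 0.715%, reached 0.95. In TPM without scaling the numbers at 0.95 were 93 for NAD-ME2, 6 for mMDH2 and 0 for cMDH1, and the coefficient between NAD-ME2 and cMDH1 was -0.43 in place of 0.841.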

How the data were processed

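RNA of 9 leaf libraries was sequenced by the authors, who trimmed reads with Trimmomatic, assembled transcripts de novo and quantified them with RSEM (versions not given in the sources used here). They deposited TPM for 36907 unigenes and, for 11709 of these, TPMTMM, which adds a scaling by trimmed means of log ratios. For 11708 unigenes the TPMTMM equal whole-number TPM plus 1, times 1 factor per library (relative tolerance 0.001). Neither table holds counts, and the reads behind a value cannot be recovered from TPM, so no counting interval is given. Library read totals of the study are not printed here.

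Changes were tested with limma 3.58.1 (R 4.3.3, trend on log2(TPMTMM + 1)), fitted once to all 9 libraries with no term but stage, and Benjamini-Hochberg adjustment over 11709 unigenes, at a threshold of 0.05. Fold changes are on that log2 scale. The Young to Mature test was checked on data simulated with independent noise in each unigene and library. That check does not cover deviations shared between unigenes, nor the other comparisons. Ratios within a library were tested over stages by an exact permutation test of all partitions of the libraries into 3 groups of 3 (Python 3.11.15, numpy 2.4.6). Alternatives were other scalings, pseudocounts, a filter on low values, the unigenes and libraries fitted, the replicate block, and each library left out.

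To check whether replicate numbers pair libraries, each unigene's deviations from its stage means were correlated between libraries. Young and Intermediate libraries of the same number correlated at 0.467, 0.445 and 0.696, although the labels give no shared plant or day. The fit has no block, as in the study's methods, and the value with a replicate block is given beside a Young to Intermediate result whose call it changes. Young replicates 1 and 2 correlated somewhat better with Intermediate replicates 2 and 1 (0.508 and 0.547). Same-numbered pairs with Mature replicate 2 were negative (-0.427 and -0.476), while those with Mature replicates 1 and 3 were positive (0.413 to 0.588). Deviations from a stage mean cancel within the stage, which ties their signs together. The check therefore cannot decide whether numbers pair the libraries.

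The 3 enzymes and the gene lists were chosen with earlier results of these data known. Named genes are the 3 enzymes, the listed genes and, for each enzyme, the 3 named and 2 unnamed unigenes of highest correlation. Names come from the study's text and from a shortened annotation sheet, which named 196 unigenes of the normalized table, 36 of them among the 2098 compared for likeness. The authors' own fold changes were not used.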

Additional observations from a re-analysis of the deposited data

How the results depend on the processing

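Of 273 recomputed results of the 3 enzymes, 231 kept their call and direction, 18 changed sign, of which 3 also lost a call, 22 more lost the call and 2 gained it. Each enzyme was the only unigene of its gene, so alternatives without scaling share the same log2 values and are not separate checks. The rise of NAD-ME2 from Young to Mature leaves passed the test under all 20 alternatives (1.84 to 1.91 when a library was left out). Without scaling between libraries (TPM of the same unigenes, of all unigenes, or summed per gene) the log2 fold changes of cMDH1 became -0.14 from Intermediate to Mature and -0.11 from Young to Mature leaves, that of mMDH2 from Intermediate to Mature leaves 0.034, and the second step minus the first -0.16 for NAD-ME2, -0.25 for mMDH2 and -0.17 for cMDH1. With all unigenes of the TPM table or sums per gene, NAD-ME2 from Intermediate to Mature leaves (0.59) and mMDH2 from Young to Mature leaves (0.32) no longer passed. In a fit of 2 stages with the replicate block, NAD-ME2 gained the first-step call (0.86) and lost the second (1.02, adjusted p = 0.0541 from limma), and mMDH2 lost its second-step call (0.47), as it did in a fit of 2 stages without the block. The block changed no other call of the 3 enzymes.

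Leaving out 1 library gave 0.59 to 1.01 for the first and 0.88 to 1.29 for the second step of NAD-ME2, 0.32 to 0.48 and 0.38 to 0.55 for mMDH2, 0.09 to 0.19 and 0.25 to 0.35 for cMDH1, and 0.84 to 0.90 and 0.40 to 0.49 for mMDH2 and cMDH1 from Young to Mature leaves. Without Mature replicate 1 the first step of NAD-ME2 passed (adjusted p = 0.0488 from limma). The second step minus the first ranged from -0.13 to 0.70 for NAD-ME2 (-0.10 without Intermediate replicate 1, -0.13 without Intermediate replicate 2), from -0.10 (without Intermediate replicate 2) to 0.22 for mMDH2 and from 0.07 to 0.25 for cMDH1. The ratio increases ranged from 0.98 to 1.05, 1.40 to 1.50 and 0.37 to 0.48. The cause of these shifts was not tested.

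Counts over all unigenes moved with the same choices. In the first step 350 rose and 323 fell, against 169 and 515 in TPM, 69 rising over all unigenes of the TPM table, 141 falling after the filter, 1510 and 1099 with the replicate block in 2 stages, and 9 to 620 and 53 to 514 without 1 library. In the second step 1886 rose and 1858 fell, against 772 and 5647 in TPM and 9069 falling over all unigenes of that table, and 1237 rose without Intermediate replicate 2. Over both steps together 2829 rose and 2801 fell, against 1297 and 6663 in TPM and 14493 falling over all unigenes. The number of the 6 other cycle enzymes that rose in the first step, recomputed under settings added after seeing the data, was 0 to 6 without 1 library, 0 over all unigenes of the TPM table and 1 with the replicate block in the fit of 9 libraries. The tables hold no counts, so no counting error can be set beside a value, and 3 libraries per stage limit the precision.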
